A study of Mus musculus with 32 samples.

Results

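The genes described here encode the core proteins of small RNA silencing: the 4 Argonautes (Ago1, Ago2, Ago3 and Ago4), the nucleases and cofactor that make small RNAs (Drosha, Dgcr8 and Dicer1) and the 3 GW182 proteins that Argonautes recruit (Tnrc6a, Tnrc6b and Tnrc6c). They were taken by gene symbol from a table of 34223 genes, in which each of the 10 symbols named 1 row. The samples were 32 wild-type mouse embryos, sequenced one by one as late 2-cell embryos 28 h after fertilization in vitro. All 32 had received, by microinjection, mRNA of H3.3-GFP, a fluorescently tagged histone. In 16 of them (Val_LNA) the mRNA was mixed with an antisense oligonucleotide containing locked nucleic acid (LNA) directed at tRFValCAC, which is cut from valine transfer RNA, and in the other 16 (Ctrl_LNA) with a scrambled LNA oligonucleotide. Fluorescent embryos were kept, so injected embryos alone were measured, and the labels describe no uninjected group. Each library is 1 embryo. The labels name no mating, litter or day of injection, so the spread behind each p-value is that among these single embryos, part of which may be technical.

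Argonaute proteins hold a small RNA and use it to find complementary transcripts. Drosha and its partner Dgcr8 cut microRNA precursors out of primary transcripts in the nucleus, and Dicer1 trims those precursors, and long double-stranded RNA, to mature small RNAs in the cytoplasm. GW182 proteins bind Argonautes and bring in the enzymes that remove poly(A) tails and caps. In mouse oocytes microRNA silencing is known to be weak, whereas small interfering RNAs made by Dicer1 and used by Ago2 are active. Fragments of transfer RNAs have been found bound to Argonautes in several systems. The question the comparison addresses for these genes is whether their transcripts differed when the transfer RNA fragment was targeted.

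Within the Argonaute family, Ago2 and Ago3 keep the histidine that completes the catalytic site for cutting a target, and Ago1 and Ago4 do not. The coding sequence around that residue is shown because it separates the member whose transcript changed, and its closest counterpart in this respect, from the other 2. Each run holds 33 bases of the gene's longest open reading frame in the GENCODE M21 transcripts (build GRCm38, all on the minus strand), with the codon aligned to that residue in capitals. A CAC codon specifies histidine, and CGC and CGG specify arginine.
Ago1: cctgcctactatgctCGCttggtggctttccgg
Ago2: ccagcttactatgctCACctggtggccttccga
Ago3: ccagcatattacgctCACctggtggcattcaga
Ago4: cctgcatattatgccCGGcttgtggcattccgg
The Ago1 run lies at chr4:126439877-126439909, in exon 18 of 19, at residue 805 of 857. The Ago2 run lies at chr15:73107200-73107232, in exon 18 of 19, at residue 808 of 860. The Ago3 run lies at chr4:126346666-126346698, in exon 18 of 19, at residue 808 of 860. The Ago4 run lies at chr4:126496784-126496816, in exon 17 of 18, at residue 809 of 861. Ago1, Ago3 and Ago4 are neighbours on chromosome 4, and Ago2 stands alone on chromosome 15. In alignment with Ago2, the predicted proteins were identical at 82.8% of residues for Ago1, 81.2% for Ago3 and 79.0% for Ago4.

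The libraries held 2592925 to 6259870 reads assigned to genes. The embryo Ctrl_LNA 48 stood apart: 7276 genes had a read in it, against 16687 to 20200 in each of the other 31 embryos. Of the 10 genes described here, 5 (Ago1, Ago3, Ago4, Dgcr8 and Tnrc6a) were at 0 in Ctrl_LNA 48, and 4 (Ago2, Dicer1, Drosha and Tnrc6b) had their highest value of all 32 embryos in it. The differences between groups are therefore given with and without this embryo. Markers of the 2-cell stage matched the label: of the 13 measured, all 13 had a median of at least 10 normalized counts in both groups. Of 12 cumulus and granulosa cell markers, 2 reached that median in each group, and the summed level of the list was 64.8 to 1094 in Val_LNA and 175.6 to 950.5 in Ctrl_LNA embryos. Foxl2, Fshr and Lhcgr were at 0 in all Ctrl_LNA embryos and reached at most 5.15, 2.98 and 2.43 in Val_LNA embryos. The other 9 are given as Val_LNA and then Ctrl_LNA values. Amhr2 was detected in all 32 embryos (medians 542 and 537). Tnfaip6 was detected in 13 and 9 embryos (medians 23.2 and 1.98), and Star in 8 and 13 (medians 2.43 and 10.8). The 2 markers that reached the median of 10 were thus Amhr2 and Tnfaip6 in Val_LNA, and Amhr2 and Star in Ctrl_LNA embryos. Highest values were 225 and 122 for Inhba, 114 and 43.2 for Inha, and 58.2 and 43.3 for Cyp19a1. They were 40.4 and 18.2 for Has2, 3.64 and 9.93 for Amh, and 2.49 and 0.85 for Ptx3. The part of these transcripts in the results was not tested. Of 9 sperm and late germ cell markers, 1 reached a median of 10 in each group. The 12 oocyte-derived transcripts were present in both groups, with a summed level of 7060 to 39740 in Val_LNA and 1704 to 25000 in Ctrl_LNA embryos (6329 to 25000 without Ctrl_LNA 48), and their part in the results was not tested.

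Ago2, the Argonaute whose slicing activity is best described in mammals, was lower in Val_LNA embryos, at 35.2% of the control level on the log scale. Of the 10 genes, it was the 1 that passed the test over all genes. The other 3 Argonautes, the 3 processing genes and the 3 GW182 genes did not pass. Normalized counts of Ago2 ran from 28.8 through a median of 144 to 401 in the 16 Val_LNA embryos. In the 16 Ctrl_LNA embryos they ran from 192 through a median of 326 to 1634, the top value being that of Ctrl_LNA 48, and the next highest was 556. The ranges overlapped, with 12 of 16 Val_LNA embryos below every control and 15 of 16 below the control median. The embryo above that median was Val_LNA 14, and the lowest were Val_LNA 1 at 28.8 and Val_LNA 4 at 58.6. Mean levels were 149 ± 89.6 (SD, n = 16) against 423 ± 341 (n = 16), or 342 ± 114 (n = 15) without Ctrl_LNA 48.

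**Figure D1:**
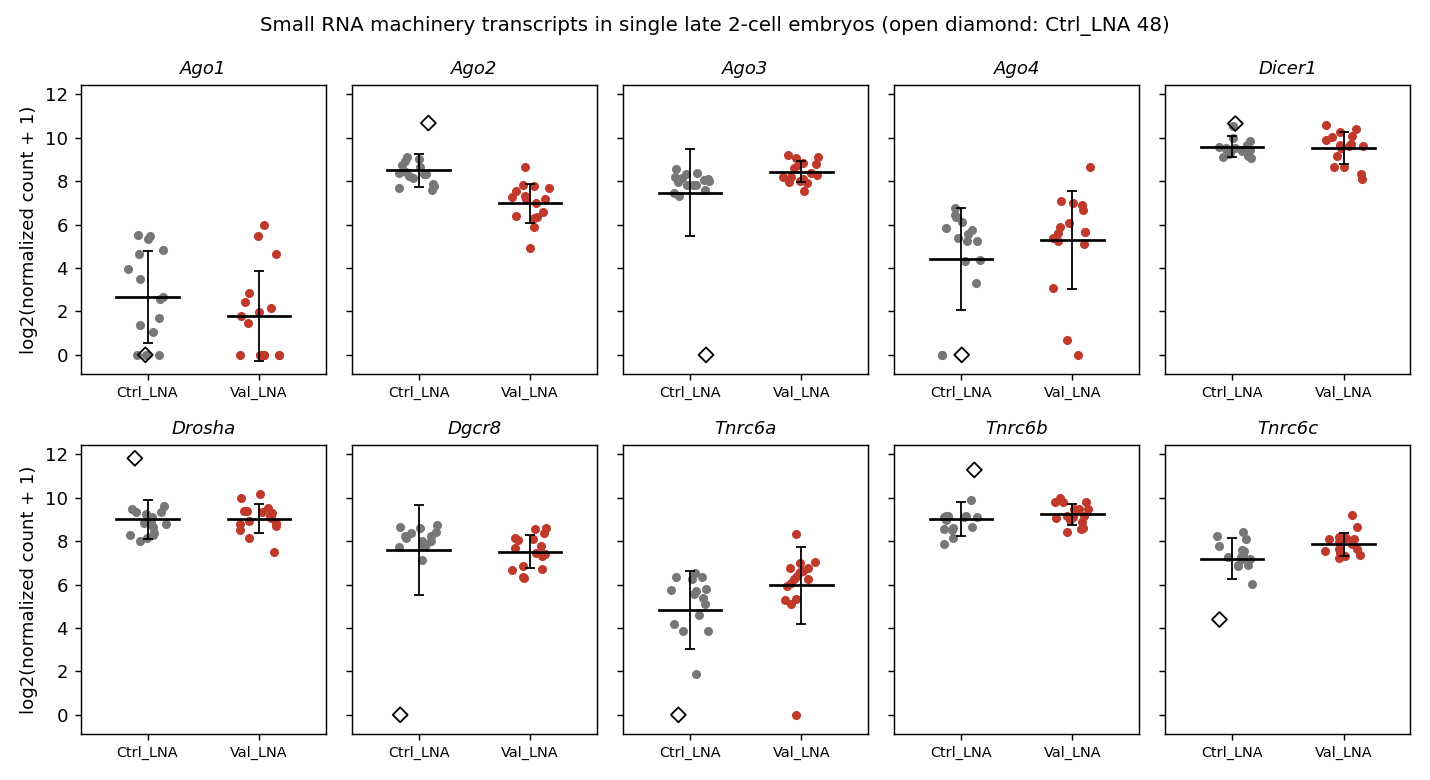
Normalized counts of the 10 genes in every embryo, as log2(normalized count + 1), with Ctrl_LNA in grey and Val_LNA in red; each point is 1 embryo, the line is the mean, the bars are 1 SD over 16 embryos, and the open diamond is Ctrl_LNA 48. Ago2 in Val_LNA embryos sits mostly under the controls, while the other genes overlap widely, and the diamond lies at 0 for 5 genes and on top for 4.

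The difference for Ago2 was -1.51 ± 0.31 (log2 fold change of normalized count + 1, Val_LNA minus Ctrl_LNA, ± SE; limma, adjusted p = 0.0041 over 15559 tested genes). Without Ctrl_LNA 48 it was -1.36 ± 0.27 (limma, adjusted p = 0.00124), or 38.9% of control. edgeR's quasi-likelihood test on the recovered reads gave -1.60 (adjusted p = 0.00254), and -1.30 without that embryo (adjusted p = 0.0015). DESeq2 gave -1.51 (adjusted p = 0.000117), and -1.26 without it (adjusted p = 6.31e-05). Leaving out any 1 of the 32 embryos kept limma's value between -1.62 and -1.36, with adjusted p from 0.00124 to 0.00855. Each library holds a whole embryo, labelled as 2 cells, so the part of each cell in the fall cannot be told apart.

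Against the whole table, a call (adjusted p under 0.05) was made for 341 of 15559 genes, or 2.19%, of which 137 were higher and 204 lower in Val_LNA embryos. Scaling each embryo to its own median gave 61 higher and 300 lower, and shifted the median difference of all tested genes from 0.26 to -0.19 on the log2 scale. That scaling moves the difference of every gene by the same amount, so the difference of Ago2 relative to the median of all tested genes stays -1.76 by construction. Its own difference there was -1.96 (limma, adjusted p = 0.0493). Without Ctrl_LNA 48, that scaling gave 186 higher and 433 lower, and the median difference went from 0.068 to -0.0004. Ago2 was then at -1.43 (limma, adjusted p = 0.000631). Without that scaling, limma called 4.2% of genes when Ctrl_LNA 48 was left out. The share called was 1.27% and 2.15% by edgeR with and without Ctrl_LNA 48, and 3.5% and 4.29% by DESeq2. In each of these fits the 10 genes held 1 lower call, Ago2, and 0 higher calls. Unadjusted p was under 0.05 for 2 of the 10 genes by limma, 1 by edgeR and 4 by DESeq2 over 32 embryos, where 14.7%, 11.1% and 14.5% of all tested genes were. By p, Ago2 stood at place 105 among all tested genes, and 138 of the 204 genes called lower had a more negative fold.

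**Figure D2:**
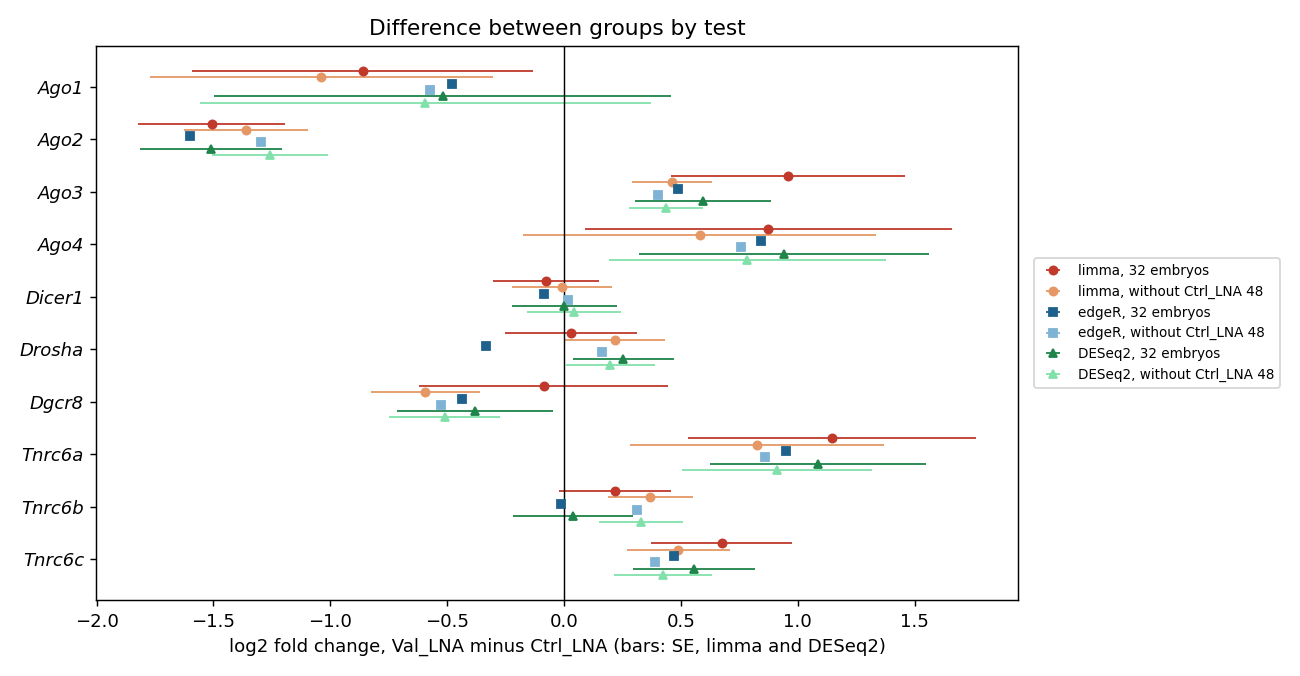
Log2 fold change (Val_LNA minus Ctrl_LNA) of each gene by limma, edgeR and DESeq2, with all 32 embryos and without Ctrl_LNA 48; bars are the SE where the tool gives one. Ago2 lies between -1.60 and -1.26 in all 6 fits, and for Dicer1, Drosha and Tnrc6b the sign differs between fits.

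Reads of Ago2 could be shared with a few other genes, since the library protocol does not mark the strand. Ago2 spans chr15:73095844-73184935 (minus strand), and its exons share 219 bases with those of Chrac1, a chromatin remodelling subunit gene on the opposite strand. Chrac1 was not called, with a log2 fold change of 0.21 (limma, adjusted p = 0.874), and 0.41 without Ctrl_LNA 48. Of the 50-base windows of Ago2 transcripts, 3.46% also occurred in other genes, most often in the pseudogene Gm6088. That pseudogene (RP23-149O3.1 in the table) was at 0 in all 16 Val_LNA embryos and was detected in 2 of 16 Ctrl_LNA embryos, with a highest value of 9.90.

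Ago3, which also carries the catalytic histidine but is not known as a general slicer, had higher values in Val_LNA embryos without passing the test. Its normalized counts ran from 187 through 322 to 579 in Val_LNA, and from 0 through 251 to 371 in Ctrl_LNA embryos. The control at 0 was Ctrl_LNA 48, and the next lowest was 161. Of the 16 Val_LNA embryos, 13 lay above the control median and 7 above every control, so the groups overlapped. The means were 362 ± 122 (SD, n = 16) and 240 ± 84.9 (n = 16), or 256 ± 57.9 (n = 15) without Ctrl_LNA 48. The difference of 0.96 ± 0.50 (limma log2 fold change ± SE, adjusted p = 0.368) moved to 0.46 ± 0.17 without that embryo (adjusted p = 0.135). Over the 19 alternative fits, the adjusted p for Ago3 ranged from 0.0863 to 0.626, and the difference was positive in all 19.

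Ago1 and Ago4, the Argonautes that lack the catalytic histidine, were low and scattered. Ago1 had a read in 9 of 16 Val_LNA and 12 of 16 Ctrl_LNA embryos. Its values reached 63.0 in Val_LNA (median 2.10) and 44.95 in Ctrl_LNA (median 5.14). The difference was -0.86 ± 0.73 (limma log2 fold change ± SE, adjusted p = 0.578), and -1.04 without Ctrl_LNA 48 (adjusted p = 0.499). Ago4 had a read in 15 Val_LNA and 13 Ctrl_LNA embryos, with medians of 49.7 and 39.03. The embryo Val_LNA 2 had 397.9, the next highest Val_LNA value was 136, and the highest control value was 108. The Ago4 difference was 0.87 ± 0.79 (limma, adjusted p = 0.598), and 0.58 without Ctrl_LNA 48 (adjusted p = 0.745). For both genes the groups overlapped, and a 0 here means not detected at this depth.

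Levels of different genes were compared as normalized counts per kilobase of merged exons. That length covers all annotated exons of a gene, and the order and the shares depend on it. By normalized count alone, Dicer1 (mean 762) stood above Drosha (480) in the 15 controls without Ctrl_LNA 48. In the 15 controls without Ctrl_LNA 48, Drosha stood highest at 80.9 ± 28.8 per kb (SD), followed by Dicer1 at 45.5 ± 14.6, Dgcr8 at 37.2 ± 10.4 and Ago2 at 24.4 ± 8.16. Tnrc6b (20.7 ± 7.07), Ago3 (15.4 ± 3.49) and Tnrc6c (13.9 ± 5.94) came next, and Ago4 (6.33 ± 4.62), Tnrc6a (3.56 ± 2.21) and Ago1 (1.80 ± 2.08) last. By mean, the order in Val_LNA embryos was the same at the top, with Drosha at 97.1 ± 42.1, Dicer1 at 48.8 ± 22.0 and Dgcr8 at 26.8 ± 13.2. Tnrc6b lay close to Dgcr8 there, at 26.7, and exceeded it in 10 of the 16 embryos, while Dgcr8 was the higher in 6. Ago2 took place 4 of 10 among the controls and place 8 of 10 in Val_LNA embryos, at 10.6 ± 6.38 per kb, below Tnrc6b (26.7), Ago3 (21.9), Tnrc6c (19.3) and Ago4 (11.4) and above Tnrc6a (7.11) and Ago1 (1.17). Within single embryos, Drosha exceeded Dicer1 per kilobase in 15 of the 15 controls and 16 of 16 Val_LNA embryos. The other neighbours in the order changed places in some embryos. Ago2 exceeded Tnrc6b in 10 of the 15 controls and was exceeded by Dgcr8 in 12. In Val_LNA embryos Ago4 exceeded Ago2 in 7 of 16, despite its higher mean, and Ago2 exceeded Tnrc6a in 11.

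Within the Argonaute family, Ago2 made up 50.5% ± 10.2 (SD, n = 15) of the summed per-kilobase level in controls without Ctrl_LNA 48 and 24.8% ± 14.2 (n = 16) in Val_LNA embryos. With Ctrl_LNA 48, where Ago2 was the sole Argonaute detected and its share 100%, the control share was 53.6% ± 15.8. Its share ran from 32.98% to 68.2% in the 15 controls and from 7.80% to 62.1% in Val_LNA embryos, the top one being Val_LNA 14. The share of Ago3 was 33.5% ± 9.43 in the 15 controls and 51.1% ± 15.2 in Val_LNA embryos. Ago4 made up 12.6% ± 9.29 and 21.5% ± 14.9, and Ago1 3.43% ± 3.69 and 2.68% ± 5.12. The summed Argonaute level was 47.97 ± 10.6 per kb in the 15 controls and 45.1 ± 17.9 in Val_LNA embryos. These shares follow from the values above and are a description without a test.

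**Figure D3:**
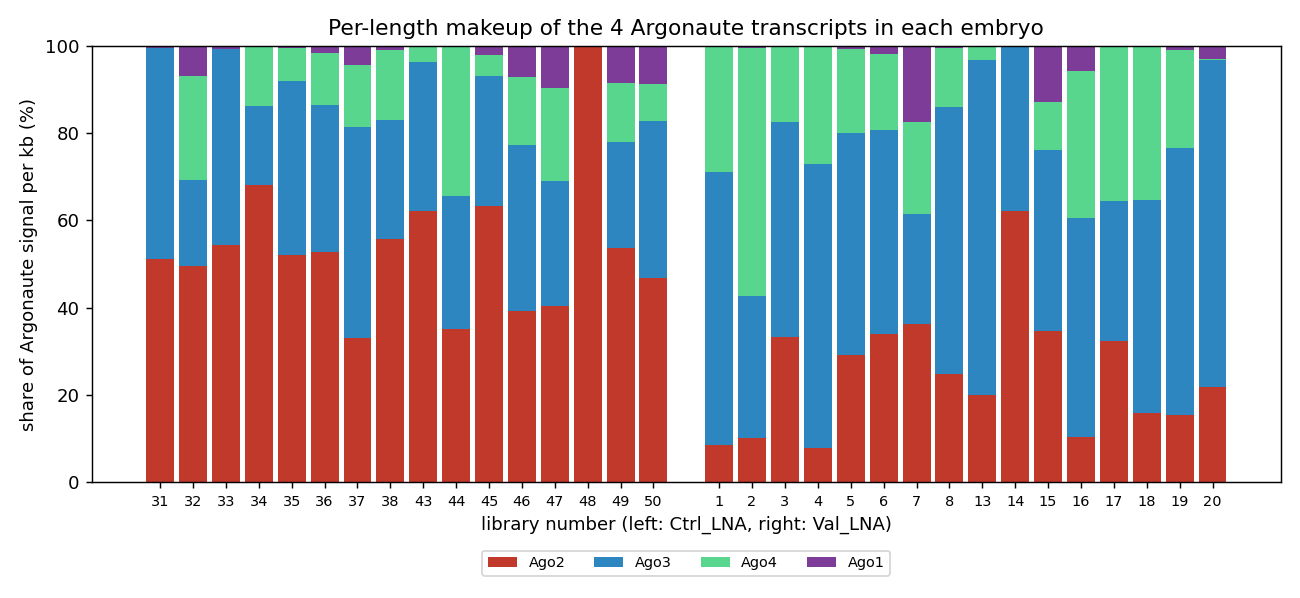
Share of each Argonaute (percent of the summed normalized counts per kilobase) in every embryo, by library number. Ago2 forms 32.98% to 68.2% of the bar in the controls other than Ctrl_LNA 48, and under that range in most Val_LNA embryos, where Ago3 averages 51.1%.

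The processing genes had the highest mean per-length levels, with Dgcr8 close to Tnrc6b in Val_LNA embryos. None of the 3 processing genes was called. Drosha, the nuclear ribonuclease that starts microRNA maturation, ran from 179 through 548 to 1140 normalized counts in Val_LNA embryos. In Ctrl_LNA embryos it ran from 259 through 463 to 3598, the last being Ctrl_LNA 48, and 790 was the next highest. Its difference was 0.03 ± 0.28 (limma log2 fold change ± SE, adjusted p = 0.967), and 0.22 without that embryo. Dicer1, which makes both microRNAs and small interfering RNAs, ran from 275 through 792 to 1515 in Val_LNA and from 541 through 726 to 1608 in Ctrl_LNA embryos. Of the Val_LNA embryos, 4 lay below every control and 11 above the control median, so the Val_LNA values were spread to both sides. The Dicer1 difference was -0.08 ± 0.23 (limma, adjusted p = 0.889), and -0.007 without Ctrl_LNA 48. For Drosha and Dicer1 the sign differed between alternatives, and no direction is drawn.

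Dgcr8, the double-stranded RNA binding partner of Drosha, also depended on the embryo that stood apart. It ran from 78.0 through 191 to 388 in Val_LNA embryos. In Ctrl_LNA embryos it ran from 0 in Ctrl_LNA 48, with 139 as the next lowest, through 269 to 425. Of the 16 Val_LNA embryos, 11 were under the control median, and none was under all controls because of the 0. Its difference was -0.09 ± 0.53 with all embryos (limma log2 fold change ± SE, adjusted p = 0.951) and -0.59 ± 0.23 without Ctrl_LNA 48 (adjusted p = 0.158). Its share of sequence found elsewhere was the largest among the 10 genes: 1180 of the 7875 windows of 50 bases in Dgcr8 transcripts occurred in other genes. Its exons share 825 bases with Trmt2a on the opposite strand, whose difference was 0.36 (limma, adjusted p = 0.777). They share 327 bases with Gm49776 on the same strand, listed as RP23-47O21.6, whose difference was -0.55 ± 0.25 (limma, adjusted p = 0.298).

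The 3 GW182 genes had higher medians in Val_LNA embryos, and none was called. The difference was positive in all 19 alternative fits for Tnrc6a and Tnrc6c, and for Tnrc6b it was negative by edgeR (-0.01) and with median centring (-0.23), which moves all genes alike. Relative to the median of all tested genes, the Tnrc6b difference was -0.04 over 32 embryos and 0.30 without Ctrl_LNA 48. Tnrc6c ran from 150 through 216 to 582 in Val_LNA and from 20.0 through 151 to 344 in Ctrl_LNA embryos, the lowest being Ctrl_LNA 48. Of the Val_LNA embryos, 15 of 16 lay above the control median, but 2 above every control. Its difference was 0.67 ± 0.30 (limma log2 fold change ± SE, unadjusted p = 0.0317, adjusted p = 0.289), and 0.49 ± 0.22 without Ctrl_LNA 48 (adjusted p = 0.243). Tnrc6a ran from 0 through 79.6 to 317 in Val_LNA and from 0 through 43.7 to 91.8 in Ctrl_LNA embryos. Its 0 in Val_LNA came from Val_LNA 1 and its top value from Val_LNA 14, while 12 of 16 Val_LNA embryos lay above the control median and 7 above every control. Its difference was 1.15 ± 0.62 (limma, adjusted p = 0.376), and 0.83 without Ctrl_LNA 48 (adjusted p = 0.464). Tnrc6b, the most abundant of the 3 per kilobase, ran from 338 through 574 to 1015 in Val_LNA and from 235 through 533 to 2481 in Ctrl_LNA embryos, or to 950 without Ctrl_LNA 48. Its difference was 0.22 ± 0.24 (limma, adjusted p = 0.671), and 0.37 without that embryo. Tnrc6b made up the largest mean share of the summed GW182 level per kilobase in both groups, 51.3% ± 12.5 in Val_LNA and 54.6% ± 14.3 in the 15 controls. That summed level was 53.2 ± 13.7 per kb in Val_LNA embryos and 38.2 ± 8.57 in the 15 controls, or 42.4 ± 18.9 with Ctrl_LNA 48. These shares and sums are a description without a test.

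The library numbers in the sample names form runs of 8, numbers 1 to 8 and 31 to 38 (lower) and 13 to 20 and 43 to 50 (upper), which the labels do not call batches. In the lower runs, Ago2 had a median of 148 in Val_LNA and 326 in Ctrl_LNA embryos, and 7 of 8 Val_LNA embryos lay below all 16 controls. In the upper runs the medians were 109 and 366, and 5 of 8 did. The difference was -1.44 ± 0.39 in the lower runs (limma log2 fold change ± SE, unadjusted p = 0.00169, adjusted p = 0.0881) and -1.58 ± 0.51 in the upper runs (unadjusted p = 0.00596, adjusted p = 0.337). The upper runs gave -1.29 ± 0.37 without Ctrl_LNA 48 (limma, adjusted p = 0.122). With 8 embryos a group, none of the 10 genes was called in either set, where 1.16% of all genes in the lower and 0.225% in the upper runs were. With run as a covariate over all 32 embryos, the difference was -1.51 ± 0.31 (limma, adjusted p = 0.00408). The interaction of group and run for Ago2 was -0.14 ± 0.64 (limma, adjusted p = 0.964), and the interaction passed for 0 of 15559 genes (0.0%), with 808 at an unadjusted p under 0.05, or for 0 with 920 without Ctrl_LNA 48. Ago4 had medians of 49.7 against 39.03 in the lower and 45.95 against 41.1 in the upper runs, and differences of 1.95 ± 0.94 and -0.20 ± 1.18 (limma, adjusted p = 0.447 and 0.951; interaction adjusted p = 0.817).

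**Figure D4:**
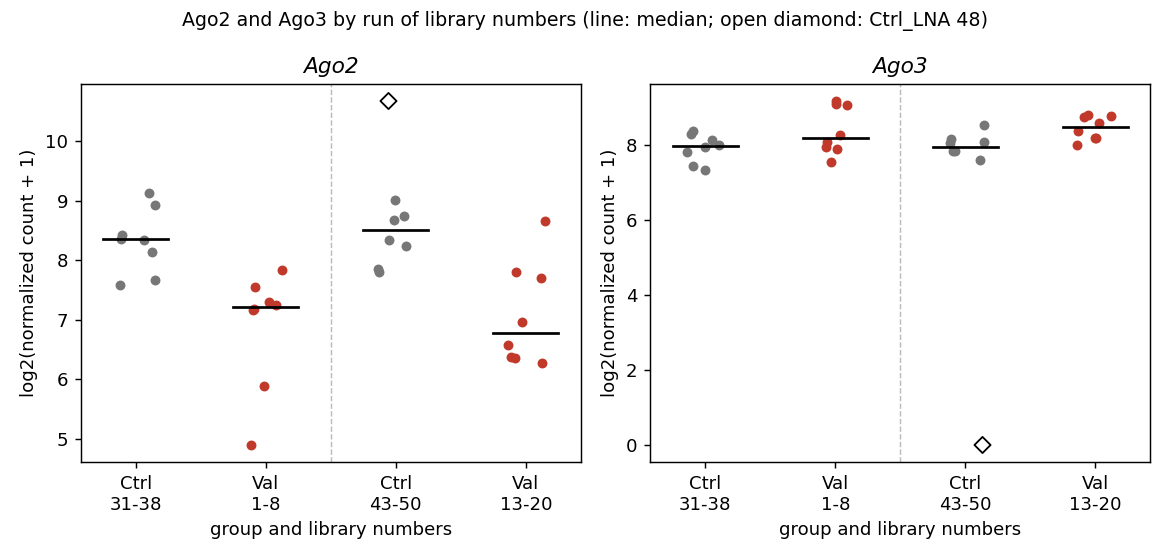
Ago2 (left) and Ago3 (right) as log2(normalized count + 1) in each run of 8 library numbers, with Ctrl_LNA in grey, Val_LNA in red, the median as a line and Ctrl_LNA 48 as an open diamond. The Ago2 medians of Val_LNA embryos (148 and 109 normalized counts) lie below those of the controls (326 and 366) in both sets of runs.

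Variation from embryo to embryo within a group was then compared among the 10 genes, over the 31 embryos without Ctrl_LNA 48, with each group centred on its mean. Of 45 pairs, 0 passed at an adjusted p of 0.05 (permutation test within groups, 100000 resamples, two-sided). The 2 smallest permutation p, for r and for rho, belonged to Ago4 with Tnrc6c and to Dicer1 with Drosha. Ago4 with Tnrc6c had r = -0.51 and rho = -0.53 (permutation p = 0.0042 and 0.00317, adjusted 0.164 and 0.0713). Dicer1 with Drosha had r = 0.49 and rho = 0.53 (permutation p = 0.00798 and 0.0022, adjusted 0.164 and 0.0713). Without the 2 embryos farthest from the median of the first gene, r was -0.28 for the first pair and 0.66 for the second, and without the 2 farthest on the second gene it was -0.38 and 0.36. With Ctrl_LNA 48 included, r was -0.10 and 0.56. Ago2 and Tnrc6a had r = 0.50 (permutation p = 0.0125, adjusted 0.164), and 0.01 without the 2 farthest embryos, so that relation rests on them. The genes whose levels followed Ago2 most closely in the same embryos, out of 8204 ranked, were Metap2 (r = 0.80, rho = 0.78), Napa (r = 0.74), Gpat4 (r = 0.67), Bsdc1 (r = 0.67) and Slc16a10 (r = 0.67). Metap2 removes the initiator methionine from new proteins, and Napa encodes a factor for SNARE disassembly. Without the 2 embryos farthest in Ago2, r was 0.68 for Metap2 and 0.30 for Gpat4. With Ctrl_LNA 48 included, r was 0.69 for Metap2 but 0.00 for Napa, 0.07 for Gpat4, -0.30 for Bsdc1 and -0.16 for Slc16a10, so these 4 likenesses rest on leaving that embryo out. The genes that ran most against Ago2 were Trim7 (r = -0.69), Arih1 (r = -0.64), Mpdz (r = -0.61), Ggps1 (r = -0.61) and Obox3 (r = -0.60). With that embryo r was -0.78, -0.25, -0.72, -0.56 and -0.34 for these 5 genes in the same order. These values describe 31 embryos that share library preparation and scaling. The 10 genes so named are the extremes of the 8204 ranked, and their correlations with Ago2 were not tested. None of them was called between the groups.

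The wider pathways were described with 4 lists of other genes, by counts and medians, to be read beside the 1.31% of all tested genes that were called lower and the 0.881% called higher by limma. Of 30 tested genes of microRNA biogenesis and its cofactors, 2 were called lower and 0 higher, with 13 positive and 17 negative differences. The list's median was -0.21 beside 0.26 for all tested genes (-0.22 beside 0.068 without Ctrl_LNA 48). Hnrnpa1, an RNA-binding protein that promotes processing of some primary microRNAs, fell by 1.57 ± 0.22 on the log2 scale (limma, adjusted p = 2.56e-05; edgeR adjusted p = 7.73e-05). Its mean was 768 ± 331 normalized counts in Val_LNA and 2389 ± 1487 in Ctrl_LNA embryos (2079 ± 848 without Ctrl_LNA 48), and the control median exceeded 16 of 16 Val_LNA values. Eri1, an exonuclease that trims small RNA and histone mRNA ends, fell by 2.25 ± 0.61 (limma, adjusted p = 0.0407). Neither edgeR (adjusted p = 0.346) nor DESeq2 called Eri1. Without Ctrl_LNA 48 the list had 3 lower and 1 higher calls, where limma called 2.63% of all tested genes lower and 1.57% higher. The 2 added genes, named after their values were seen, were Srrt, which links capped transcripts to microRNA processing (-2.70, limma, adjusted p = 0.000274; 47.01 ± 36.5 against 223 ± 95.9), and Hnrnpa2b1, an RNA-binding protein linked to primary microRNA processing (1.03, limma, adjusted p = 0.0369; 1531 ± 620 against 918 ± 890). With all 32 embryos their adjusted p by limma was 0.06 and 0.061, while edgeR called Srrt (adjusted p = 0.0142) and not Hnrnpa2b1 (0.459). DESeq2 on these 32 embryos also called Srrt (-2.16, adjusted p = 0.000223) and not Hnrnpa2b1.

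Of 34 tested genes for loading and partners of Argonautes, 1 was called lower and 0 higher. The list median was 0.16 beside 0.26 for all tested genes, and -0.031 beside 0.068 without Ctrl_LNA 48. Without that embryo 15 differences were positive and 19 negative, against 22 and 12 with it. The gene called lower was Fkbp4, a co-chaperone of Hsp90, which helps open Argonautes for loading. Fkbp4 fell by 1.17 ± 0.33 on the log2 scale (limma, adjusted p = 0.0456), from 1157 ± 590 normalized counts in Ctrl_LNA to 604 ± 414 in Val_LNA embryos. Neither edgeR (adjusted p = 0.175) nor DESeq2 called it. Of 32 tested silencing effectors that act downstream of GW182 proteins, such as the Ccr4-Not deadenylase and decapping factors, 0 were called by limma or edgeR. The differences were positive for 28 of the 32, with a median of 0.37, where 64.3% of all tested genes were positive. Without Ctrl_LNA 48 the median was 0.24, and 25 were positive, where 54.2% of all tested genes were. The smallest p of that list was that of Edc3, a decapping enhancer, at -1.45 ± 0.54 (limma, adjusted p = 0.178). Of 21 tested genes of the Piwi and piRNA pathway, 1 was called lower and 0 higher. Their median was 0.28 beside 0.26 for all tested genes, and -0.057 beside 0.068 without Ctrl_LNA 48. Without that embryo 10 differences were positive and 11 negative, against 12 and 9 with it. Mybl1, a transcription factor of piRNA precursors in the testis, fell by 1.38 ± 0.38 (limma, adjusted p = 0.0433), from 107 ± 67.9 to 44.7 ± 34.3 normalized counts. Its adjusted p was 0.0683 by edgeR and 0.0123 by DESeq2.

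**Figure D5:**
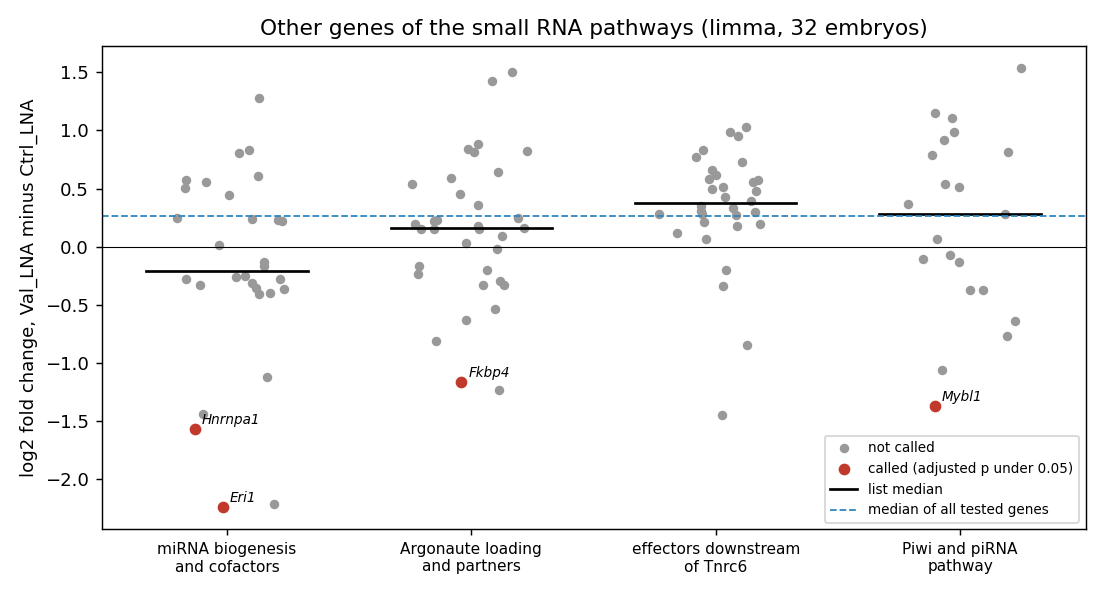
Log2 fold change (Val_LNA minus Ctrl_LNA, limma, 32 embryos) of each tested gene of 4 pathway lists; red points passed an adjusted p of 0.05, the black lines are list medians and the dashed line is the median of all tested genes. The red points are 2 genes of microRNA biogenesis, Fkbp4 and Mybl1, all below 0, and no effector downstream of Tnrc6 is red.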

How the data were processed

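Polyadenylated RNA of single embryos was reverse transcribed, amplified and sequenced, per the labels' protocols, which name no molecular identifiers, so PCR copies count as reads. The submitters' processing notes list STAR, Bowtie2, SAMtools, DESeq2 and the build mm10, and for versions and annotation nothing is given in the sources used here. Per gene, the authors deposited a signal, read counts divided by size factors per the file headers (normalized counts), and per embryo the size factor, a ratio of an embryo to a common reference. Value times size factor gave a whole number for 1095136 of 1095136 values (100%, tolerance 0.01), and these recovered reads entered the count tests. Columns without a sample numbered 0. IDs matched GENCODE M21 for 34179 of 34223 genes (99.9%), which gave exons, lengths and sequences.

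The main test was limma 3.58.1 (trend and robust options, R 4.3.3) on log2(normalized count + 1), two-sided, over the 15559 genes with at least 10 in at least 8 embryos, with Benjamini-Hochberg adjustment. The pseudocount shrinks differences of low genes on this scale (for Ago1, -1.03, -0.86 and -0.34 with pseudocounts of 0.5, 1 and 10). edgeR 4.0.16, DESeq2 1.42.0 and other scalings, filters and pseudocounts were alternatives. On simulated data for this comparison (15559 genes), limma recovered 16% of 2-fold and 59% of 4-fold changes, with 4 false calls. The changed genes were drawn from those with a mean of at least 50, so this recovery does not cover genes as low as Ago1. The genes and lists were chosen with earlier results of these data known. Named were the 10 genes, per list, the called genes of smallest p, at most 4 (where none was called, the gene of smallest p), and the 5 genes most and least like Ago2 with a mean of at least 50, leaving out Gm, Rik and clone names. One item of a pathway list is not reported here and was left out of that list's counts.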

Additional observations from a re-analysis of the deposited data

How the results depend on the processing

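No paired analysis was possible because the groups share no replicate numbers. The Ago2 call held in 16 of the 16 alternatives that used both sets of runs, with values from -1.96 to -1.26 and adjusted p from 6.31e-05 to 0.0493, and in 32 of 32 fits that left out 1 embryo. With 8 embryos a group it did not pass: -1.44 in the lower runs, -1.58 in the upper runs and -1.29 in the upper runs without Ctrl_LNA 48, with 0 of the 10 genes called in each, which use fewer embryos. The sign turned for uncalled genes. Ago4 was at -0.202 in the upper runs (-0.869 without Ctrl_LNA 48), and Dgcr8 at 0.773 in the upper runs. Dicer1 was at 0.0018 by DESeq2 (0.0418 without Ctrl_LNA 48), 0.0773 by the rank-sum test, 0.0163 by edgeR without Ctrl_LNA 48, and 0.164 in the upper runs (0.298 without that embryo). Drosha was at -0.334 by edgeR, -0.0366 by voom, -0.418 with median centring, -0.0545 with TMM scaling and -0.00209 in the upper runs. Tnrc6b was at -0.0137 by edgeR and -0.23 with median centring. Median centring shifts all genes alike, so its sign turns are no change of these genes relative to the rest. Leaving out 1 embryo gave -0.148 to 0.0163 for Dicer1 and -0.0445 to 0.217 for Drosha. The count of all genes called, 341, was 197 by edgeR, 544 by DESeq2 (668 without Ctrl_LNA 48), 917 with array weights, 654 without Ctrl_LNA 48 (619 with median centring as well), 180 in the lower runs, 35 in the upper runs and 131 there without Ctrl_LNA 48. MicroRNA biogenesis had 1 higher call without Ctrl_LNA 48, where 1.57% of all tested genes were called higher. Among Argonaute loading and Piwi genes, edgeR made 0 lower calls with or without that embryo. It called 1.08% of all tested genes lower with that embryo and 1.61% without it. The cause was not tested. Fits that leave out Ctrl_LNA 48 together with another change were chosen after seeing the data. Recovery on simulated data limits what an uncalled gene shows; it was not measured by expression level.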
